A study of Saccharomyces cerevisiae with 14 samples.

Results

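The mRNAs that encode the proteins of the small (40S) ribosomal subunit of budding yeast were followed through 3 RNA immunoprecipitations. The set was named from annotation as the genes RPS0A to RPS31 together with ASC1. Of 57 genes named, 55 were counted and 54 passed the filter on low counts, against 5945 RNAs counted in all, of which 4792 were mRNAs. RPS22B and RPS29A were not analysed here, and RPS21B, with 0 to 7 counts per library, did not pass the filter.

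The 40S subunit decodes mRNA. The message threads between its body and its head, which swivels during translocation, and leaves at the platform, and proteins of all 3 regions line the mRNA channel. Growing yeast devotes much of its RNA polymerase II output to ribosomal protein genes, which are transcribed together under Rap1, Ifh1 and Sfp1, and most of which survive as A and B copies from an ancient genome duplication.

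The question was how these messages were represented in precipitates of 3 proteins of the mRNA decay machinery. Ccr4 is the main catalytic deadenylase of the Ccr4-Not complex, Dhh1 is a DEAD-box helicase that promotes decapping and represses translation, and Puf5 is a Pumilio family protein that binds sequence elements in 3′ UTRs. All strains were BY4741, haploid MATa cells grown in YPAD at 30° and cross-linked with formaldehyde. Each tagged strain carried a C-terminal myc epitope on Ccr4, Dhh1 or Puf5, and the antibody to myc was used on all of them and on extracts of untagged cells (UT IP). Each of the 4 kinds of IP was sequenced in 3 biological replicates, and RNA of the untagged extract that had not been put on antibody beads (input) was sequenced in 2. The measure is the number of reads per transcript in each of 14 libraries, and each transcript was also divided by length into 3 segments (5′, middle and 3′). The markers of mating type a were present in every library, MFA1 with 47 to 412 counts, MFA2 with 101 to 1131 and STE2 with 259 to 679. The alpha-specific MF(ALPHA)1 and STE3 were not analysed here.

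The libraries held 20376517 to 23943342 counts, of which rRNA took 95.1 to 97.4%, so that the members together had 18872 to 34162 counts per library. Enrichment is the log2 ratio of an IP over the UT IP at equal total counts. An RNA is called enriched at a log2 above 1 and a false discovery rate (FDR) under 1% in edgeR's quasi-likelihood test over all RNAs, and higher or lower at that FDR with no limit on the fold. The typical mRNA was itself higher in each tagged IP than in the UT IP at this scaling: the median over all mRNAs tested was 1.24 in the Ccr4 IP, 0.94 in that of Dhh1 and 0.61 in that of Puf5, and 0.49, 0.30 and 0.13 when libraries were scaled to their mRNA counts. The members are therefore read against those medians. The 3 enrichments share the UT IP libraries and are not independent of each other.

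The members took a smaller part of the mRNA in the Ccr4 IP than in any other kind of library. Of all mRNA counts they made up 3.86, 4.03 and 3.81% in the UT IP, 2.5, 2.52 and 2.5% in the Ccr4 IP, 3.91, 3.91 and 4.02% in that of Dhh1 and 4.01, 4.09 and 4.06% in that of Puf5. In the input they made up 3.84 and 4.2%. All 3 Ccr4 IP libraries lay below every other library, whereas the Dhh1 and Puf5 IPs overlapped the UT IP. The mean in the Ccr4 IP was 2.51% ± 0.0111 (SD, n = 3) against 3.9% ± 0.118 in the UT IP, a ratio of 0.643, with an exact two-sided permutation p of 0.1, the smallest that 3 libraries against 3 allow. The exact permutation p was 0.6 for the Dhh1 IP and 0.2 for the Puf5 IP against the UT IP, and 0.1 for the Ccr4 IP against either of the other tagged IPs. As a share of all counts, rRNA included, the order was different: 0.0849% in the UT IP, 0.0927% in the Ccr4 IP with overlapping libraries, 0.135% in the Dhh1 IP and 0.124% in that of Puf5, the last 2 above the UT IP in every library.

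**Figure D1:**
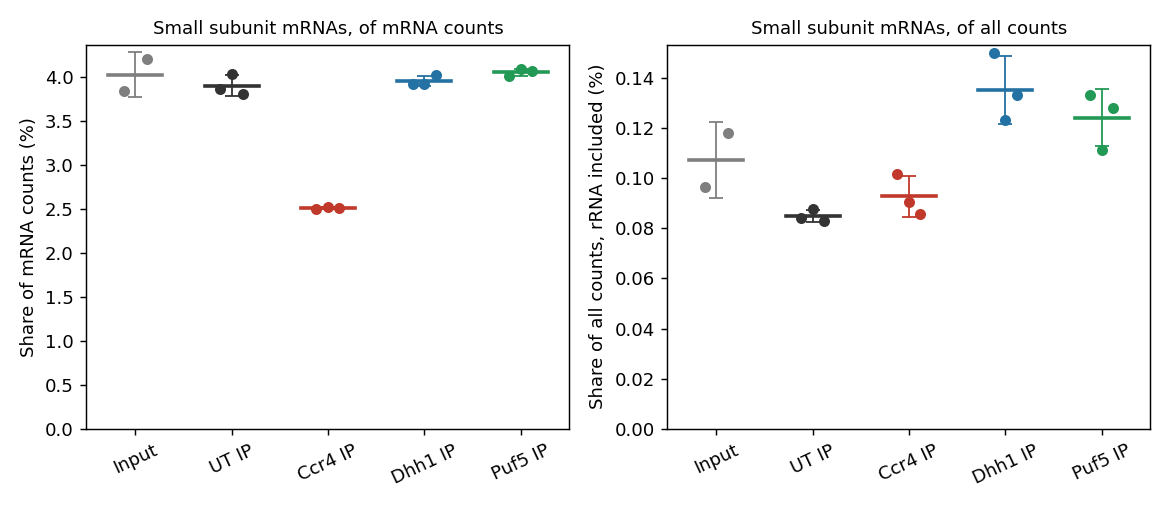
Counts on the small subunit protein mRNAs as a percent of all mRNA counts (left) and of all counts, rRNA included (right; y axes), in each library (points) of the input, UT IP, Ccr4 IP, Dhh1 IP and Puf5 IP (x axis), with the group mean (bar) and SD (error bar). The 3 Ccr4 IP libraries lie at 2.5 to 2.52%, below all others; on the right the Ccr4 IP overlapped the UT IP and the Dhh1 and Puf5 IPs lay above it.

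The lower share in the Ccr4 IP appeared in each group of members. The 9 single-copy members made up 2.45% of mRNA counts in the UT IP and 1.55% in the Ccr4 IP, and the duplicated members 1.45% and 0.954%. Members of the head made up 2.38% in the UT IP and 1.56% in the Ccr4 IP, and those of the body and platform 1.52% and 0.948%. In the Dhh1 and Puf5 IPs the head members, at 2.54 and 2.56%, were above the UT IP in every library, while the body and platform members, at 1.41 and 1.49%, were not. The input libraries had 2.40 and 2.60% for the head members, which enclose both of those means. Large subunit protein mRNAs, counted the same way, made up 5.65% of the UT IP and 4.0% of the Ccr4 IP, a ratio of 0.707.

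By gene, 4 of 54 members were enriched in the Ccr4 IP, where 57.8% of all RNAs were. The counts were 8 of 54 in the Dhh1 IP, where 37.4% of all RNAs were enriched, and 7 of 54 in the Puf5 IP, where 17.6% were. Without a limit on the fold, 7 members were higher in the Ccr4 IP (68.5% of all RNAs), 24 in that of Dhh1 (53.4%) and 16 in that of Puf5 (23.6%). One member was lower, in the Ccr4 IP, where 0.366% of all RNAs were lower; none was lower in the Dhh1 IP (0.305%) or in the Puf5 IP (0.874%). The share of members enriched was under the background for Ccr4 and Dhh1, and so was the share higher for Ccr4. For Dhh1 the share higher lay under but near the background and is not read as a difference. For Puf5 both shares lay near the background, that enriched under it and that higher above it. They are not read as a difference either. Every library of the tagged IP was above every UT IP library for 15 members with Ccr4 (77.9% of all RNAs), 35 with Dhh1 (74.5%) and 30 with Puf5 (49.1%), and below every one for 5 (1.08%), 0 (0.427%) and 3 (1.85%).

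The median log2 of the 54 members was 0.11 in the Ccr4 IP, 0.61 in that of Dhh1 and 0.44 in that of Puf5. Below the median of all mRNAs lay 50 members in the Ccr4 IP, 44 in that of Dhh1 and 35 in that of Puf5. With libraries scaled to their mRNA counts the medians turned negative, at −0.65, −0.042 and −0.047, and the members higher and lower numbered 0 and 22 with Ccr4 (22 and 5.68% of all RNAs), 0 and 1 with Dhh1 (4.8 and 1.75%) and 5 and 4 with Puf5 (7.65 and 2.91%). The members' median minus that of all mRNAs was −1.13 to −1.14, −0.33 to −0.35 and −0.17 to −0.18 in the Ccr4, Dhh1 and Puf5 IPs under the scalings tried. With TMM, which sets most RNAs near 0, the medians were −1.02, −0.31 and −0.15 for the members and 0.13, 0.041 and 0.035 for all mRNAs. Each scaling moves all RNAs of an IP by nearly the same amount, so a member that was higher at equal total counts but lay well below the median of all mRNAs had a log2 under 0 with mRNA totals or TMM. Other mRNAs that averaged 114.5 counts or more in the input, 914 in number, had medians of 0.69, 0.66 and 0.39. They were not matched to the members in counts, since most duplicated members averaged fewer in the input. The 69 large subunit protein mRNAs tested had medians of 0.25, 0.64 and 0.45.

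**Figure D2:**
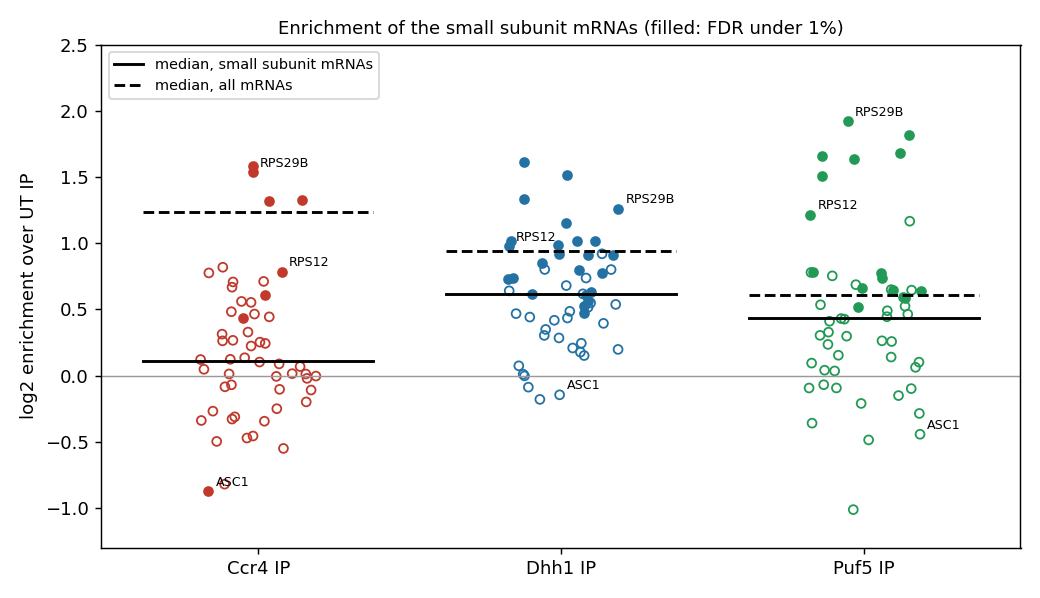
Log2 enrichment over the UT IP at equal total counts (y axis) of each of the 54 members (points; filled at FDR under 1%) in the Ccr4, Dhh1 and Puf5 IPs (x axis), with the median of the members (solid line) and of all mRNAs (dashed line). The members' medians of 0.11, 0.61 and 0.44 lie under those of all mRNAs, 1.24, 0.94 and 0.61; scaled to mRNA counts, the members' medians are −0.65, −0.042 and −0.047.

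Separate lists, of 40S assembly factors and of regulators of ribosomal protein genes, were read the same way. The messages of 14 factors of late 40S assembly, which are not part of the finished ribosome, had medians of 1.08, 1.17 and 0.85 in the Ccr4, Dhh1 and Puf5 IPs, with 12, 13 and 5 of 14 higher (68.5, 53.4 and 23.6% of all RNAs) and 8, 10 and 4 enriched (57.8, 37.4 and 17.6%). Their Ccr4 median lay under the 1.24 of all mRNAs and their share enriched there was near the background. Of the listed regulators of ribosomal protein genes only 4 were counted. Their median log2 values were 1.69, 1.03 and 1.26, and 3, 2 and 2 were enriched, too few for a share to be read against the background.

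ASC1, a gene of the head, was the one member lower in the Ccr4 IP. Asc1 is the yeast RACK1, a scaffold on the head near the mRNA exit that takes part in signalling and in the response to stalled ribosomes. ASC1 (YMR116C) had 1758, 1580 and 1424 counts in the UT IP, 913, 863 and 749 in the Ccr4 IP, 1589, 1264 and 1249 in that of Dhh1, 1172, 998 and 1316 in that of Puf5 and 1187 and 1282 in the input. The 3 Ccr4 IP libraries were below all others, the Dhh1 IP overlapped the UT IP, and the 3 Puf5 IP libraries were below the UT IP. ASC1 had 69.3 ± 5.83 CPM (counts scaled to a common total) in the UT IP and 37.8 ± 3.59 in the Ccr4 IP (SD, n = 3 each), a log2 of −0.87 (SE 0.14, edgeR FDR 5.93e-06) that also passed the test against the input (−0.64, FDR 0.00146). In the Dhh1 and Puf5 IPs the log2 was −0.15 and −0.44 (FDR 0.0131 for the latter), neither past the threshold. Without ASC1 the members made up 3.58% of mRNA counts in the UT IP, 2.40% in the Ccr4 IP, 3.77% in that of Dhh1 and 3.89% in that of Puf5. The Dhh1 and Puf5 IPs then lay above the UT IP in every library (exact permutation p = 0.1 each). Leaving out a member that was below 0 in all 3 tagged IPs raises their shares against the UT IP by itself, so this is no separate result. The input libraries without ASC1 were at 3.61 and 3.99%, which enclose the Dhh1 and Puf5 means. The difference between the Ccr4 and UT IPs was widest in the middle segment of the transcript, with 1083, 891 and 792 counts in the UT IP and 409, 448 and 390 in the Ccr4 IP. A smaller middle share in the Ccr4 IP was not particular to ASC1. The middle segment held 36.4% of the counts of all mRNAs in the UT IP and 31.4% in the Ccr4 IP. For the members together it held 44.0 and 37.9%. An intron of ASC1 hosts the small nucleolar RNA snR24, which is counted on its own and had 7 to 57 counts per library; whether reads of the host and the guest RNA were mixed was not tested.

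RPS31 and RPS12, single-copy genes of head proteins, did not follow ASC1. RPS31 (YLR167W) encodes a ribosomal protein of the beak made as a fusion to ubiquitin. It had 1736, 1724 and 1693 counts in the UT IP, 2215, 1931 and 1836 in the Ccr4 IP, 4191, 2857 and 2929 in that of Dhh1, 2668, 2284 and 2798 in that of Puf5 and 2016 and 2368 in the input. The Dhh1 IP was above all other groups in every library. RPS31 was enriched in the Dhh1 IP, at a log2 of 1.02 (SE 0.13, FDR 3.05e-06), and higher in the Puf5 IP, at 0.59 (FDR 0.000849). In the Ccr4 IP its log2 was 0.25 (FDR 0.076), and −0.51 when scaled to mRNA counts. Leaving out the Dhh1 IP replicate 1 library, the highest of the 14 for this gene, brought the Dhh1 value to 0.86 and so below the limit on the fold.

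RPS12 (YOR369C), for another protein of the beak, was higher in all 3 tagged IPs at equal total counts. It had 1514, 1428 and 1490 counts in the UT IP, 3635, 2045 and 1783 in the Ccr4 IP, 3385, 2518 and 2430 in that of Dhh1, 3757, 2996 and 3503 in that of Puf5 and 1569 and 1744 in the input. All tagged libraries were above the UT IP, the Ccr4 IP overlapped the input at equal total counts, and the first Ccr4 IP library stood far above the other two. The log2 was 0.78 in the Ccr4 IP (SE 0.17, FDR 0.000213), 0.98 in that of Dhh1 (FDR 5.29e-05) and 1.22 in that of Puf5 (FDR 3.33e-06), only the last past the limit on the fold. In the first Ccr4 IP library 2073 counts of RPS12 lay in the 3′ segment, against 821 and 585 in the others, and without that library the Ccr4 value was 0.44. Scaled to mRNA counts the Ccr4 value was −0.0049. RPS12 also passed the test against the input in the Puf5 IP, at 0.92 (FDR 0.000923).

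**Figure D3:**
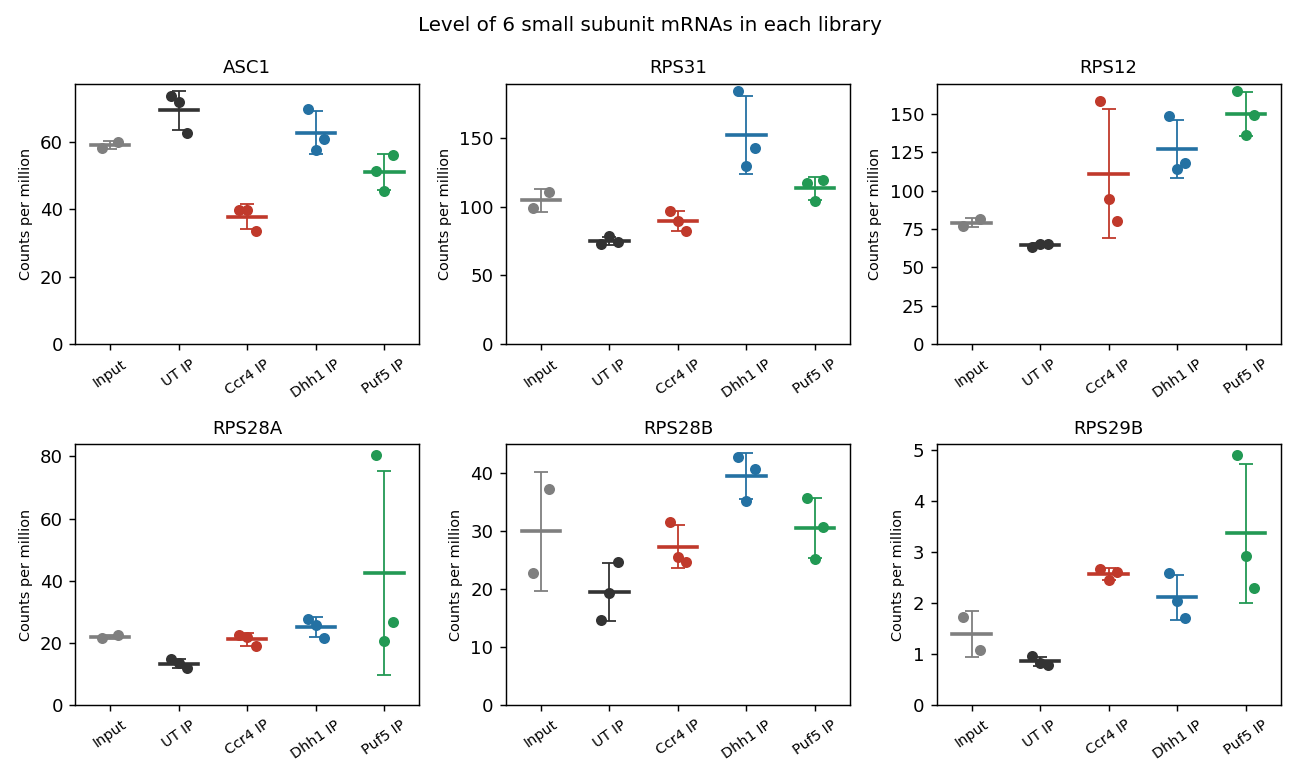
CPM, counts scaled to equal total counts (y axis), of ASC1, RPS31, RPS12, RPS28A, RPS28B and RPS29B (panels) in each library (points) of the input and the 4 kinds of IP (x axis), with the group mean (bar) and SD (error bar). ASC1 is lowest in the 3 Ccr4 IP libraries, RPS31 and RPS28B are highest on average in the Dhh1 IP, and single libraries stand apart for RPS12 (1 Ccr4 IP library) and RPS28A (1 Puf5 IP library).

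Further single-copy members were each higher in 1 to 3 of the tagged IPs at equal total counts. The medians of all mRNAs at this scaling were 1.24, 0.94 and 0.61 in the Ccr4, Dhh1 and Puf5 IPs. Of the values over the UT IP given here, only those of RPS20 and RPS13 in the Puf5 IP lay above them. RPS15 (YOL040C), whose protein reaches the decoding site from the head, had 896 to 961 counts in the UT IP, 831 to 974 in the Ccr4 IP, 1340 to 1634 in the Dhh1 IP and 1083 to 1665 in the Puf5 IP. Its log2 was 0.74 in the Dhh1 IP (FDR 0.000169) and 0.59 in that of Puf5 (FDR 0.00242). RPS20 (YHL015W), for a head protein that is ubiquitinated on stalled ribosomes, was higher in all 3 tagged IPs, at 0.43 (FDR 0.00355), 0.91 (FDR 6.47e-06) and 0.65 (FDR 0.000272), with a Ccr4 value of −0.32 when scaled to mRNA counts. RPS3 (YNL178W), whose protein lines the mRNA entry channel, passed in the Dhh1 IP alone, at 0.53 (FDR 0.000906), as did RPS2 (YGL123W), for a body protein at the same channel, at 0.48 (FDR 0.00208), and both were below 0, at −0.13 and −0.18, when scaled to mRNA counts. RPS13 (YDR064W), for a body protein that forms bridges to the large subunit, passed in the Puf5 IP, at 0.78 (FDR 0.00649), and was also above the input there, at 1.13 (FDR 0.0026), and in the Ccr4 IP, at 0.90 (FDR 0.00626).

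With both Ccr4 and Dhh1 the 4 highest members were RPS26B, RPS27A, RPS27B and RPS29B, all at low counts. Rps29 is a zinc-binding head protein, and RPS29B (YDL061C) had 23, 18 and 18 counts in the UT IP, 61, 53 and 58 in the Ccr4 IP, 59, 45 and 35 in that of Dhh1, 112, 64 and 54 in that of Puf5 and 35 and 23 in the input. Every tagged library was above every UT IP library. Its log2 was 1.54 in the Ccr4 IP (SE 0.33, FDR 0.000123), 1.26 in that of Dhh1 (FDR 0.0015) and 1.92 in that of Puf5 (FDR 2.78e-05). The first Puf5 IP library held 89 of its counts in the 3′ segment, against 34 and 25 in the others. The UT IP is the reference of all 3 values, and there RPS29B had a log2 of −0.67 over the input. RPS29B did not pass the test of any tagged IP against the input.

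Rps26 sits at the mRNA exit on the platform and Rps27 on the body, and both bind zinc. RPS26B (YER131W) had 19, 11 and 11 counts in the UT IP, 35, 46 and 44 in the Ccr4 IP, 43, 40 and 34 in that of Dhh1 and 37, 38 and 77 in that of Puf5. It was enriched in all 3, at 1.59 (SE 0.37, FDR 0.000295), 1.52 (FDR 0.000781) and 1.82 (FDR 0.00022). RPS27A (YKL156W), with 6 to 15 counts in the UT IP and 23 to 47 in the tagged IPs, was enriched in all 3 as well, at 1.32, 1.61 and 1.66, and RPS27B (YHR021C) in the Ccr4 and Dhh1 IPs, at 1.32 and 1.33. In the Puf5 IP RPS27B had a log2 of 1.17 (FDR 0.0135). None of RPS26B, RPS27A and RPS27B passed the test of any tagged IP against the input. These low counts leave the ratios with an SE of 0.37 to 0.41, and RPS27A and RPS27B each no longer passed in the Ccr4 IP in 2 of the 12 fits that left out a library.

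RPS28A and RPS28B encode a head protein at the mRNA exit, and the 3′ UTR of RPS28B is known for recruiting Edc3 and the decapping machinery to its own message. RPS28A (YOR167C) had 351, 294 and 267 counts in the UT IP, 517, 474 and 418 in the Ccr4 IP, 633, 564 and 444 in that of Dhh1, 1832, 453 and 626 in that of Puf5 and 437 and 479 in the input. One Puf5 IP library, replicate 1, stood apart, with 1332 of its 1832 counts in the 3′ segment, where the others had 49 and 93. RPS28A was enriched in the Puf5 IP at 1.68 (SE 0.29, FDR 5.87e-05), but at 0.83 without that library, and it was higher in the Dhh1 IP at 0.91 (FDR 0.00752). RPS28B (YLR264W) had 350, 424 and 561 counts in the UT IP, 723, 553 and 550 in the Ccr4 IP, 976, 773 and 835 in that of Dhh1, 813, 553 and 720 in that of Puf5 and 463 and 796 in the input. The Dhh1 IP was above the UT IP by the widest margin, and RPS28B was enriched there at 1.02 (SE 0.18, FDR 5.89e-05), with 0.64 (FDR 0.00587) in the Puf5 IP and 0.48 (FDR 0.0161) in the Ccr4 IP.

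The other enriched members were each enriched in 1 IP. In the Dhh1 IP these were the head members RPS18B (YML026C), with 53 to 64 counts in the UT IP and 101 to 153 in the Dhh1 IP (log2 1.15, FDR 0.000324), and RPS25B (YLR333C), with 187 to 210 and 374 to 386 (log2 1.02, FDR 3.03e-05). Rps25 is known for its part in initiation at viral internal ribosome entry sites. In the Puf5 IP they were RPS26A (YGL189C), with 28 to 57 counts in the UT IP and 107 to 171 in the Puf5 IP (log2 1.64, FDR 3.52e-05), and RPS21A (YKR057W), with 4 to 28 and 41 to 55 (log2 1.51, FDR 0.00913), which lost its call in 6 of the 12 fits that left out a library. RPS26A was above the input as well, at 1.36 (FDR 0.00372).

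Of members that averaged at least 50 counts, the lowest came from the head, body and platform. In the Ccr4 IP they were ASC1, RPS0B at −0.55 (FDR 0.0169) and RPS7A at −0.46, both genes of body proteins that did not pass. In the Dhh1 IP ASC1 was followed by RPS17A at 0.01 and RPS14B at 0.07, and in the Puf5 IP RPS14B at −0.49, ASC1 and RPS4A at −0.36 were the lowest, none past the threshold.

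Grouped by location, 13 of 22 head members were higher in the Dhh1 IP, where 53.4% of all RNAs were, with a median log2 of 0.77, and 11 of 32 members of the body and platform with a median of 0.48. In the Puf5 IP (23.6% of all RNAs higher) the counts were 9 of 22 and 7 of 32, with medians of 0.53 and 0.31, and in the Ccr4 IP (68.5%) 4 of 22 and 3 of 32, with medians of 0.08 and 0.17. The single-copy members, 9 in number, had 2, 7 and 6 higher in the Ccr4, Dhh1 and Puf5 IPs, against 5, 17 and 10 of the 45 duplicated members and 68.5, 53.4 and 23.6% of all RNAs. Members with a bacterial counterpart had medians of 0.03, 0.54 and 0.42, and those without one 0.18, 0.63 and 0.45. These groups differ in their counts per gene and their difference was not tested.

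Set directly against the Dhh1 IP, a comparison that leaves the UT IP out, 11 of 54 members were lower in the Ccr4 IP, where 1.08% of all RNAs were lower, and 0 were higher, where 4.82% of all RNAs were. The median of the members was −0.51 and that of all mRNAs 0.25. Of the members that passed, the lowest were RPS18B at −1.07 (SE 0.25, FDR 0.0039), RPS25B at −0.89 (SE 0.17, FDR 0.000655) and RPS7A at −0.87 (SE 0.20, FDR 0.00411), and single-copy RPS31 (−0.76, FDR 0.000229), ASC1 (−0.73, FDR 0.000776), RPS15 (−0.72, FDR 0.00119) and RPS3 (−0.72, FDR 0.000276) were among them. RPS0B, RPS22A and RPS1B, for body and platform proteins, were also lower, at −0.85, −0.81 and −0.53. RPS22A (YJL190C) had 692, 571 and 537 counts in the Ccr4 IP and 1157, 1004 and 938 in that of Dhh1, without overlap. With libraries scaled to mRNA counts 17 members were lower (3.34% of all RNAs) and 0 higher (4.74%). Without Ccr4 IP replicate 2 the count at equal total counts was 7. Over the 12 fits that each left out a library, RPS18B no longer passed in 3, RPS7A in 4, RPS1B in 5 and RPS0B in 6.

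Against the Puf5 IP, 6 members were lower in the Ccr4 IP, where 2.66% of all RNAs were, and 1 was higher, where 23.7% of all RNAs were. The median was −0.34 for the members and 0.56 for all mRNAs. The lower members included RPS28A (−1.01, SE 0.29), RPS26A (−0.93, SE 0.27), RPS17B (−0.75, SE 0.23), RPS22A (−0.74, SE 0.15) and RPS15 (−0.57, SE 0.15). The RPS28A value rested on 1 library: without Puf5 IP replicate 1 it was −0.16 (FDR 0.474). RPS14B (YJL191W), whose pre-mRNA is bound by the Rps14 protein to block its own splicing, was the one member higher in the Ccr4 IP, with 91, 78 and 56 counts against 24, 24 and 51 in the Puf5 IP, a log2 of 1.20 (SE 0.35, FDR 0.00642). Scaled to mRNA counts, 19 members were lower (6.13% of all RNAs) and 0 higher (13.2%), so that RPS14B did not pass. The count of 7 in either direction was 4 without Ccr4 IP replicate 2, without Ccr4 IP replicate 3 or without Puf5 IP replicate 2. Over the 12 fits, RPS15 no longer passed in 2, RPS14B and RPS26A in 4 each, RPS28A in 5 and RPS17B in 7.

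Between the Dhh1 and Puf5 IPs 0 members passed edgeR's test, where 1.91% of all RNAs were higher and 2.01% lower in the Dhh1 IP. At an unadjusted p under 0.05, 10 members were higher (25.5% of all RNAs) and 3 lower (4.9%), and DESeq2 called 2 at its adjusted threshold. RPS3 came nearest, at 0.48 (FDR 0.0131), with 2547, 2110 and 1985 counts in the Dhh1 IP and 1756, 1509 and 1685 in that of Puf5.

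The precipitate of untagged cells shows what the beads carry without a tag. Over the input, 0 members were higher (0.02% of all RNAs) and 0 lower (3.16%) by edgeR, with 2 higher (0.519% of all RNAs) and 12 lower (27.5%) at an unadjusted p under 0.05. The members' median was −0.23 and that of all mRNAs −0.40 at equal total counts, and the members' median turned to 0.064, with −0.12 for all mRNAs, when libraries were scaled to mRNA counts. Of members that averaged 50 counts or more, RPS18B, at −1.02 (FDR 0.0138), RPS28A, at −0.72, and RPS29B were the lowest, and RPS13 at 0.35, RPS4A at 0.33 and ASC1 at 0.23 the highest. Of members with fewer counts, RPS26B was at −1.26 (FDR 0.039), RPS27B at −1.05 (FDR 0.0876) and RPS27A at −0.70, while RPS6B was at 1.03 (FDR 0.159) and RPS24B at 1.13 (FDR 0.137). RPS26B, RPS27A, RPS27B, RPS29B and RPS18B, which were enriched in at least 1 tagged IP, were thus among the lowest in the UT IP over the input, and the UT IP is the reference of those enrichments. With the input in place of the UT IP as the reference, 1 member was higher and 3 lower in the Ccr4 IP (28.2 and 1.42% of all RNAs), 0 and 0 in that of Dhh1 (3.18 and 1.14%), and 3 and 0 in that of Puf5 (5.17 and 2.26%). The members lower in the Ccr4 IP were ASC1, RPS7A at −0.73 and RPS18B at −0.93.

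The counts of duplicated members lay unevenly along their transcripts. The segment with the most counts held a median of 42.1% of the counts of the 9 single-copy members, 67.2% of those of the 45 duplicated members and 40.7% over 4685 mRNAs. It held over 75% in 16 of the 45 duplicated members, in 0 of the 9 single-copy members and in 63 mRNAs, 1.34% of all. RPS6B had 97.3%, RPS14A 94.5%, RPS19A 92.9% and RPS18B 90.4% of their counts in the middle segment, RPS4A 91.9% and RPS17B 90.1% in the 3′ segment, and RPS6A 87.3% in the 5′ segment. Copies of a pair share long stretches of sequence, and how reads matching both were treated is not given in the sources used here. Whether the counts of a duplicated member cover only the part unlike its copy was not tested.

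**Figure D4:**
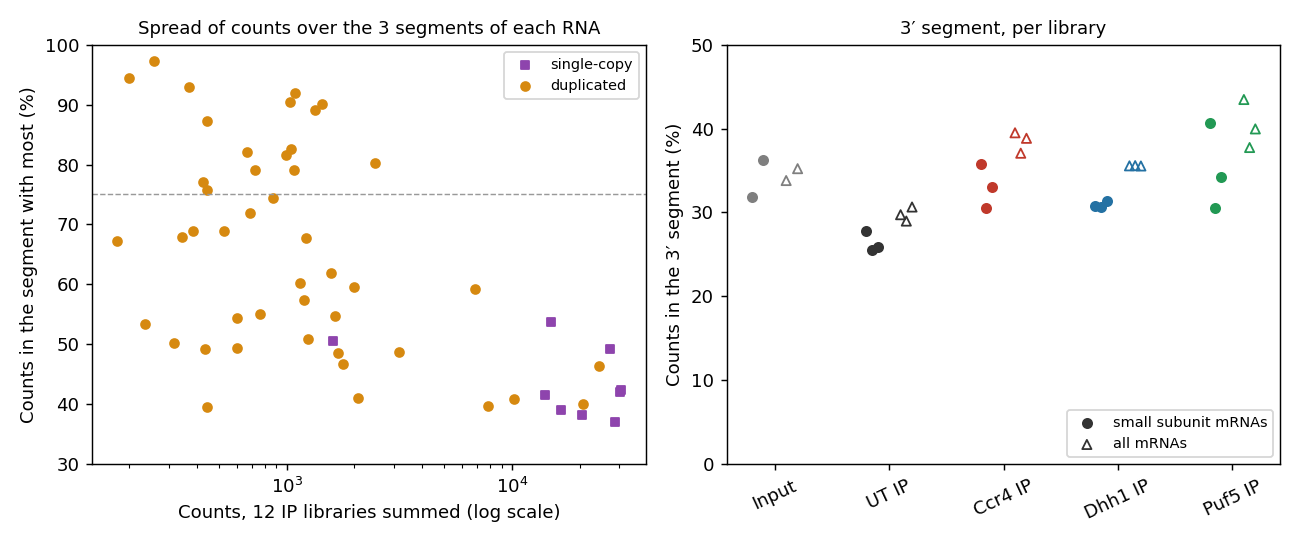
Left, percent of counts in the segment with the most counts (y axis) against counts summed over the 12 IP libraries (x axis, log scale; dashed line, 75%) for single-copy and duplicated members (points). Right, percent of counts in the 3′ segment (y axis) per library for the members (circles) and for all mRNAs (triangles) in each kind of library (x axis); single-copy members lie at 37.0 to 53.7% on the left, duplicated members reach 97.3%, and the UT IP is lowest on the right for both.

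The 3′ segment held 26.4% ± 1.19 of the members' counts in the UT IP, 33.1% ± 2.59 in the Ccr4 IP, 30.9% ± 0.426 in that of Dhh1 and 35.2% ± 5.13 in that of Puf5 (SD, n = 3), and a mean of 34.0% in the 2 inputs. Every tagged library was above every UT IP library, with an exact permutation p of 0.1 for each IP. All mRNAs together gave 29.8, 38.5, 35.6 and 40.4% in the 4 kinds of IP and 34.5% in the input. The UT IP thus had the lowest 3′ share for the members and for mRNAs at large, and the members' mean lay below that of all mRNAs in each kind of library.

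The log2 enrichments of the 3′ and 5′ segments were set against each other in 37 members, among 4158 mRNAs, at an FDR of 5%. In the Ccr4 IP the 3′ segment was more enriched in 2 members (5.12% of mRNAs) and the 5′ segment in 2 (0.216%). The counts were 1 and 0 in the Dhh1 IP (1.78 and 0.0481%) and 5 and 1 in that of Puf5 (10.9 and 0.192%). With TMM factors within each segment they were 1 and 4 with Ccr4, 0 and 0 with Dhh1 and 0 and 2 with Puf5. The 3′ calls in the Dhh1 and Puf5 IPs thus depended on the scaling. The members' median difference of the 3′ over the 5′ log2 was −0.05, 0.14 and 0.14 in the Ccr4, Dhh1 and Puf5 IPs, below the 0.40, 0.37 and 0.61 of all mRNAs. With the input as the reference 0 members passed in any IP. The share of all mRNAs that passed in that test is not given here, so this count is not read as particular to the members.

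RPS1A (YLR441C), for a platform protein near the mRNA exit, had 306, 215 and 225 counts in its 3′ segment in the UT IP, 683, 408 and 658 in the Ccr4 IP, 523, 430 and 527 in that of Dhh1 and 836, 546 and 726 in that of Puf5. Its 5′ segment had 509, 562 and 630 counts in the UT IP and 587, 439 and 409 in the Ccr4 IP. The 3′ counts of all tagged libraries were above the UT IP while the 5′ counts of the Ccr4 and UT IPs overlapped. The difference in log2 was 1.46 in the Ccr4 IP (SE 0.23, FDR 0.000703) and 1.33 in the Puf5 IP (SE 0.23, FDR 0.000381). RPS3, whose 3′ segment had 256, 276 and 281 counts in the UT IP, 439, 367 and 361 in the Ccr4 IP, 675, 560 and 525 in that of Dhh1 and 578, 401 and 519 in that of Puf5, passed in all 3 IPs, at 0.81 (FDR 0.0106), 0.78 (FDR 0.0309) and 0.98 (FDR 0.000813). RPS1B at 0.86 and RPS28B at 0.97 passed in the Puf5 IP.

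RPS7A (YOR096W) went the other way in the Ccr4 and Puf5 IPs. Its 3′ segment had 100, 103 and 99 counts in the UT IP, 49, 32 and 54 in the Ccr4 IP and 45, 37 and 77 in the Puf5 IP, while its 5′ segment had 16, 34 and 31 in the UT IP and 41, 60 and 54 in the Puf5 IP. In neither segment did the Puf5 and UT IPs overlap. The differences in log2 were −1.49 (SE 0.41, FDR 0.03) and −1.89 (SE 0.40, FDR 0.00196). RPS17B in the Ccr4 IP, at −2.11 (SE 0.69, FDR 0.0375), rested on a 5′ segment with 1, 0 and 8 counts in the UT IP and 14, 9 and 10 in the Ccr4 IP. Wide differences that did not pass included RPS10B at −2.28 (FDR 0.0938), RPS17A at −1.69 (FDR 0.0595) and RPS25B at 1.26 in the Ccr4 IP, RPS27A at 2.22 and RPS14B at 1.05 in the Dhh1 IP, and RPS27A at 1.81 and RPS29B at 1.44 in the Puf5 IP. RPS18A was below 0 in all 3, at −2.23 (FDR 0.0836), −1.52 (FDR 0.304) and −1.82 (FDR 0.11). Without UT IP replicate 1 or Ccr4 IP replicate 1 the members called in the Ccr4 IP numbered 2 in place of 4. In both fits 0 had the 5′ segment more enriched, so RPS7A and RPS17B lost their calls in the Ccr4 IP. Without Dhh1 IP replicate 2 or 3 the 5′ segment was more enriched there in 1 member. The 1 call in the Dhh1 IP was lost without UT IP replicate 2 or any 1 of the Dhh1 IP libraries and was 2 without Ccr4 IP replicate 3.

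The division of counts between the A and B copies changed across the IPs in 1 member pair. Among 48 pairs of A and B genes of all functions, 6 or 12.5% changed their division over the 4 kinds of IP at an FDR of 5%, and among 21 member pairs tested 1 did. That pair was RPS4, for a body protein: RPS4A (YJR145C) had 94, 91 and 102 counts in the UT IP and 64, 75 and 92 in the Ccr4 IP, and RPS4B (YHR203C) 24, 22 and 20 in the UT IP and 28, 46 and 41 in the Ccr4 IP. The A copy made up 81.3% ± 2.1 of the pair in the UT IP, 66.9% ± 4.3 in the Ccr4 IP (SD, n = 3), 82.3% in that of Dhh1 and 78.4% in that of Puf5, with 73.3 and 90.5% in the inputs, and the Ccr4 and UT IPs did not overlap. The log2 difference between the Ccr4 and UT IPs was −1.08 (SE 0.29), with an FDR of 0.0364 by edgeR over the 48 pairs for any change among the IPs. The call was lost without UT IP replicate 2 or 3, without any 1 Ccr4 IP library, or without Dhh1 IP replicate 3. RPS4A had 91.9% of its counts in the 3′ segment and RPS4B 50.2%, so the division compares unlike parts of the transcripts. Whether shifts between segments entered the division of this or other pairs was not tested.

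The next pairs by p did not pass over the 48 pairs. The A share of RPS6, a body protein phosphorylated downstream of TORC1, was 49.9% in the UT IP and 76.4% in the Puf5 IP (edgeR FDR 0.124), from 11 to 50 counts per copy in those IPs. Here too the copies were counted over unlike parts, RPS6A with 87.3% of its counts in the 5′ segment and RPS6B with 97.3% in the middle segment. The A share of RPS28 was 41.1% and 53.6% in the same IPs (edgeR FDR 0.182), and the Puf5 mean rested on replicate 1, with 69.3% against 45% and 46.5% in the others. That of RPS26 was 76.9% in the UT IP and 63.9% in the Ccr4 IP (edgeR FDR 0.182). RPS14 and RPS9, whose proteins act on the splicing of their own pre-mRNAs, had A shares of 30.4% in the UT IP and 15% in the Ccr4 IP (edgeR FDR 0.182), and of 18.1, 21.8, 15.4 and 16.6% in the UT, Ccr4, Dhh1 and Puf5 IPs (edgeR FDR 0.298). RPS14A had 7 to 24 counts per IP library. RPS22 could not be compared, since RPS22A alone was counted.

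**Figure D5:**
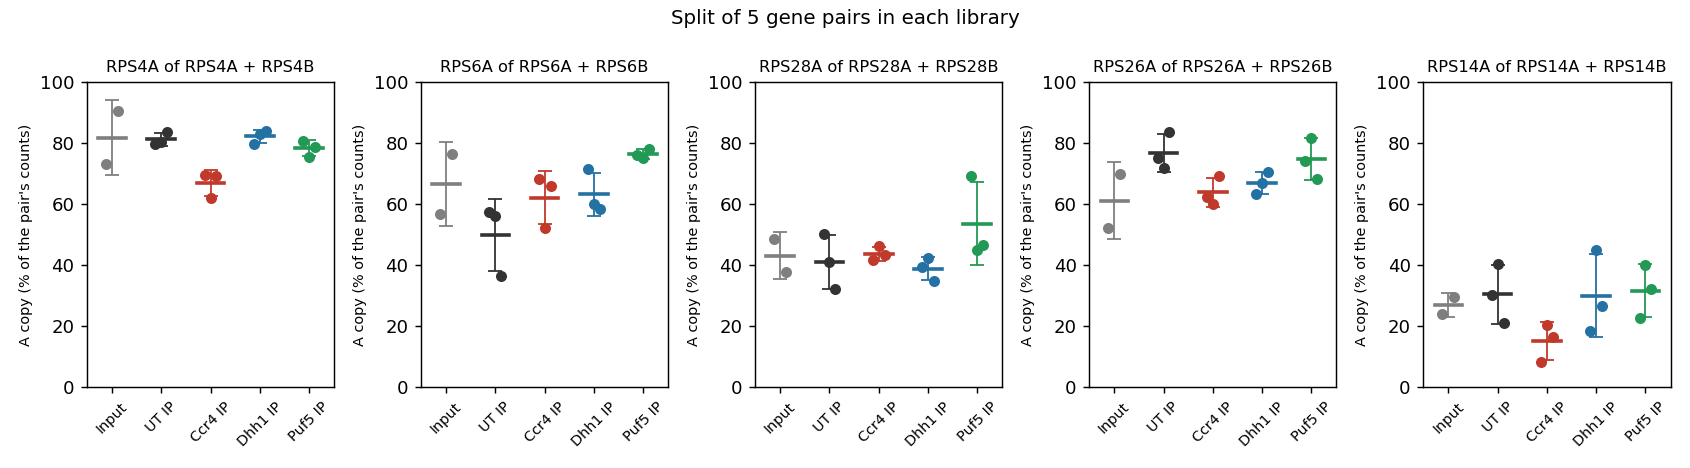
Share of the A copy in the counts of its pair, in percent (y axis), in each library (points) of the input and the 4 kinds of IP (x axis) for RPS4, RPS6, RPS28, RPS26 and RPS14 (panels), with the group mean (bar) and SD (error bar). Only RPS4 passed the test over all pairs, with 81.3% in the UT IP and 66.9% in the Ccr4 IP.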

How the data were processed

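RNA precipitated from formaldehyde cross-linked yeast, and input RNA, had been sequenced on a SOLiD 4. The authors trimmed the reads, mapped them with SHRiMP to an earlier release of the yeast genome and deposited raw counts of reads between published transcript ends, per transcript and for each of 3 segments of its length. Columns of the authors' own log2 enrichment were not used. The treatment of reads with several matches is not given in the sources used here.

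The counts were tested with edgeR (4.0.16, R 4.3.3) quasi-likelihood fits over all 12 IP libraries (14 where the input entered), with library size as the total over all RNAs, no further scaling, filterByExpr and a prior count of 1. The 3′ against the 5′ segment, and A against B copies, were tested as interactions with the library as a block, where both parts averaged at least 5 counts. Shares of counts were compared by exact two-sided permutation tests. limma (3.58.1) and DESeq2 (1.42.0) served as alternatives. Scripts were tested on simulated data. The members, groups and lists were chosen with earlier results of these data known. Members named are the 3 highest and 3 lowest per comparison that averaged at least 50 counts, the 4 pairs of lowest p, the 2 highest and 1 lowest members by 3′ difference, members with known regulation (ASC1, RPS31, RPS9, RPS14, RPS22, RPS28), and, chosen after their values were seen, those called; 1 member stays in every count but is not reported by name here. Gene symbols came from RefSeq; no genome of the files' build was used, so positions and sequences are not given and introns were not separated.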

Additional observations from a re-analysis of the deposited data

Results flagged for a closer look

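Members that differed between 2 tagged IPs in a test of that difference (edgeR, FDR under 1% over all RNAs) are listed for a closer look. In the Ccr4 IP over the Dhh1 IP these included RPS18B (log2 −1.07), RPS25B (−0.89), RPS7A (−0.87), RPS0B (−0.85), RPS22A (−0.81), RPS31 (−0.76), ASC1 (−0.73), RPS15 (−0.72), RPS3 (−0.72) and RPS1B (−0.53). In the Ccr4 IP over the Puf5 IP they included RPS28A (−1.01), RPS26A (−0.93), RPS17B (−0.75), RPS22A (−0.74), RPS15 (−0.57) and RPS14B (1.20), of which RPS28A was −0.16 without Puf5 IP replicate 1. The RPS4 pair differed in its division between copies, with a log2 difference of A over B of −1.08 between the Ccr4 and UT IPs.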

How the results depend on the processing

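Scaling decided the sign and the calls of enrichment and moved the members' place relative to all mRNAs little. The choice of reference moved that place in the Dhh1 and Puf5 IPs. The members enriched in the Ccr4, Dhh1 and Puf5 IPs (4, 8 and 7) numbered 0, 0 and 1 with TMM, 0, 0 and 4 with mRNA totals, 0, 0 and 4 without rRNA, 0, 0 and 3 with DESeq2's own size factors, 7, 24 and 16 without a fold limit and 0, 0 and 2 over the input; leaving out 1 library gave 2 to 4, 6 to 9 and 5 to 7, with 2 in the Ccr4 IP without its replicate 1. The medians were −1.02, −0.31 and −0.15 with TMM, −0.65, −0.042 and −0.047 with mRNA totals, −0.66, 0.018 and 0.056 without rRNA and 0.020, 0.37 and 0.15 over the input, and 0.062 to 0.17, 0.53 to 0.68 and 0.40 to 0.52 with 1 library left out. Members below the median of all mRNAs, a count added after seeing the data, ranged over 50 to 51, 42 to 44 and 31 to 37 with 1 library left out. With the input as the reference they numbered 50, 33 and 29 of 54. In the Puf5 IP the members' median over the input, 0.15, was then near the 0.19 of all mRNAs.

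Members differing between the Ccr4 and Dhh1 IPs (11) numbered 21 with TMM, 17 with mRNA totals, 20 without rRNA and 17 at an FDR of 5%, and 7 to 11 with 1 library left out. Those between the Ccr4 and Puf5 IPs (7) numbered 30, 19, 21 and 15, and 4 to 7. Those between the Dhh1 and Puf5 IPs (0) numbered 1 with TMM, 2 with DESeq2, 5 at an FDR of 5% and 0 to 1. Those between the UT IP and input (0) numbered 1 with TMM and 1 without rRNA, and 0 to 1. The median there was 0.20, 0.064 and 0.22 with TMM, mRNA totals and no rRNA, and −0.32 to −0.11. These counts of members are given without the share of all RNAs that passed in each setting. A larger count is therefore not read as a stronger result. The log2 ratio of the members' share to the UT IP (−0.64, 0.018 and 0.056) was 0.13, 0.67 and 0.55 of all reads, −0.65, 0.078 and 0.16 without rRNA and −0.68, −0.027 and 0.011 over the input, and −0.65 to −0.61, 0.0014 to 0.043 and 0.039 to 0.081 with 1 library left out. Members with unequal 3′ and 5′ segments (4, 1 and 6) numbered 5, 0 and 2 with TMM factors within each segment. Of these, 1, 0 and 0 were more enriched in the 3′ segment and 4, 0 and 2 in the 5′ segment. Members with unequal segments numbered 0 in each IP over the input and 2 in the Dhh1 IP against the middle segment. With 1 library left out they numbered 2 to 6, 0 to 2 and 5 to 8. The pair called (1) was 0 with at least 50 counts per copy, at an FDR of 1% or with the input added, and 0 to 1 with 1 library left out.

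Of named members in the Ccr4 IP, RPS12 was −0.39, −0.0049 and −0.013 with TMM, mRNA totals and no rRNA and RPS31 −0.89, −0.51 and −0.52. Leaving out 1 library turned the sign of no member called in these comparisons; RPS17A and RPS14B in the Dhh1 IP, near 0 and not called, ranged over −0.11 to 0.22 and −0.11 to 0.37. The deviations of same-numbered libraries were not correlated (correlations of −0.055 to 0.1 for 26 pairs with the same number and −0.1 to 0.07 for others), so the numbers were not taken to pair them. Replicate 1 did have the highest mRNA percent of each tagged IP, 4.07, 3.83 and 3.32% with Ccr4, Dhh1 and Puf5, but not of the UT IP. The libraries that stood apart for RPS12, RPS31 and RPS28A were also replicate 1 of those IPs. Whether replicate 1 shared a step of handling was not tested. With the replicate number as a block, 4, 8 and 6 members were enriched, 13, 10 and 1 differed between the Ccr4 and Dhh1, Ccr4 and Puf5, and Dhh1 and Puf5 IPs, RPS21A lost its call in the Puf5 IP (FDR 0.0108) and ASC1 gained one there (FDR 0.0095). Members with few counts, and duplicated members whose counts lie in 1 segment, set the limit of precision; intervals cover the spread between these libraries.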
